A study of Drosophila melanogaster with 8 samples.

Results

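The 36 genes examined here make up the machinery by which the Drosophila gut digests, stores and exports lipid. They were taken by FlyBase symbol from a prepared list of lipases, lipid droplet proteins, enzymes of fatty acid and triglyceride synthesis, sterol transport proteins and lipoproteins. Of the 36, 31 were found among the 9177 genes of the deposited count table, and all 31 passed the filter on low counts, the lowest count of any of them in any library being 14. The other 5, Lip3, Npc2c, Npc2g, Npc2h and fabp, were not analysed here.

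Dietary fat is cleaved in the gut lumen by secreted lipases, and enterocytes, the absorptive cells of the midgut, take up the fatty acids and sterols. There the fatty acids are rebuilt into triglyceride, which is kept in lipid droplets or handed to lipoprotein particles that carry it to the other tissues. In flies the transcription factor SREBP, which is set free from a membrane precursor by proteolysis, drives genes of fatty acid synthesis, and flies cannot make sterols and so depend on sterols taken up from food.

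RNA was sequenced from posterior midgut (R3 to R5) of virgin female Drosophila melanogaster at 9 days of age, after 6 days at 29 °C. All 3 groups carried MyoIA-Gal4, an enterocyte driver, with UAS-GFP and the temperature-sensitive repressor tubGal80TS. The Ctrl group (n = 2) had no further transgene and came from a cross to Canton-S, the SvbAct group (n = 3) carried UAS-SvbACT::GFP, a constitutive activator form of the transcription factor Shavenbaby, and the RNAiSvb group (n = 3) carried UAS-SvbRNAi, a hairpin against the same gene. The strain label states activation in intestinal stem cells, whereas the genotype names the enterocyte driver. Each library came from a batch of pooled flies. Patches of enterocytes were held back on a strainer and so enriched, not sorted. Because Ctrl carried no UAS construct for Shavenbaby, the presence of such a construct and the effect of its product cannot be told apart in comparisons with Ctrl.

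Total counts ranged from 15450011 to 23748649 per library. The gene ovo, which encodes Shavenbaby, had 9 and 2 counts in Ctrl, 40, 26 and 61 in the libraries labelled RNAiSvb and 868, 1189 and 762 in SvbAct. Every library labelled RNAiSvb lay above both Ctrl libraries, so a knockdown was not seen. With so few counts in Ctrl a fall could hardly be seen, so these values cannot decide whether the hairpin acted. What is given for the libraries labelled RNAiSvb is a difference of the labelled groups. Of the 6 enterocyte markers, all were detected in every library, with a summed level between 6228 and 13834 CPM, the count scaled to a common library size. Most of that sum in every library was Jon65Aiv, at 71693 to 202249 counts. Among the 6, nub was higher in SvbAct than in Ctrl (log2 fold change 1.21, adjusted p 0.0107 by edgeR), and Amy-p was lower in SvbAct than in the libraries labelled RNAiSvb (-2.24, adjusted p 0.0127 by edgeR). Of the 8 enteroendocrine markers, Dh31 was lower in the libraries labelled RNAiSvb than in Ctrl (-2.14, adjusted p 0.00629 by edgeR) and higher in SvbAct than in those libraries (2.37, adjusted p 0.00136 by edgeR). Progenitor markers (6 genes) summed to 92.7 and 104 CPM in Ctrl, 97.9 to 104 in the libraries labelled RNAiSvb and 206 to 306 in SvbAct, where 5 of the 6 were higher than in Ctrl in edgeR's quasi-likelihood test. Those 5 had log2 fold changes from 2.05 to 3.78. Most of the sum in Ctrl was klu, with 1303 and 1310 counts, which was not called in SvbAct (0.31, adjusted p 0.48 by edgeR). Visceral muscle markers (7 genes) varied within every group, from 241 to 1518 CPM over all libraries. The 2 copper cell markers summed to 93.1 CPM in SvbAct replicate 3 and to at least 243 CPM in every other library. The 7 fat body markers in the table, of which apolpp is also one of the lipid genes, summed to 27.4 and 43.2 CPM in Ctrl. They summed to 43.9 to 299.5 in the libraries labelled RNAiSvb and 28.3 to 183 in SvbAct. Of the 5 that passed the filter on low counts and were tested, 0 were called in any contrast. Most of the summed level was tobi, with 732 and 335 counts in Ctrl, 3335, 6894 and 800 in the libraries labelled RNAiSvb and 3245, 309 and 469 in SvbAct. Of the other fat body genes, Yp3 had 8 and 14 counts in Ctrl, 52, 45 and 29 in the libraries labelled RNAiSvb and 12, 6 and 9 in SvbAct. Fbp1 had 0 and 1 in Ctrl, 15, 24 and 0 in the libraries labelled RNAiSvb and 18, 36 and 37 in SvbAct. Lsp1gamma had 3 and 12 in Ctrl, 2, 0 and 6 in the libraries labelled RNAiSvb and 10, 8 and 6 in SvbAct. Yp2 had 1 and 0 in Ctrl, 3, 20 and 1 in the libraries labelled RNAiSvb and 1, 5 and 6 in SvbAct. Yp1 had at most 1 in any library. The part of these markers in the results was not tested.

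The lipid genes differed widely in level. Levels between genes are given as CPM per kilobase of exon. The most abundant was mag (magro), which encodes a secreted intestinal lipase and cholesterol esterase, at 4152 CPM per kilobase in Ctrl, the rank of 18 among 8671 genes with a known exon length. It took 0.547% and 0.620% of all counts in the Ctrl libraries. In the other roles the highest mean levels in Ctrl were those of Npc2d, of the NPC2 family of small sterol-binding proteins, at 397 CPM per kilobase, the perilipin Lsd-2, which coats lipid droplets, at 367, and the fatty acid desaturase Desat1, at 304. They were followed by Acsl, a long-chain acyl-CoA synthetase, at 263, Gpat4, a glycerol-3-phosphate acyltransferase, at 156, SREBP at 68.5, and Mtp, the microsomal triglyceride transfer protein, at 2.78. The lipoprotein genes were among the lowest of the 31, with 0.379 CPM per kilobase for apolpp, which encodes the main lipoprotein of the haemolymph and is known to be made mostly in the fat body, and 0.126 for Apoltp, the lipid transfer particle that loads it. FASN2, a fatty acid synthase that lies 454 bases from FASN1 on the same strand of chromosome 2L, stood at 0.262 in Ctrl, while FASN1 stood at 32.3.

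**Figure D1:**
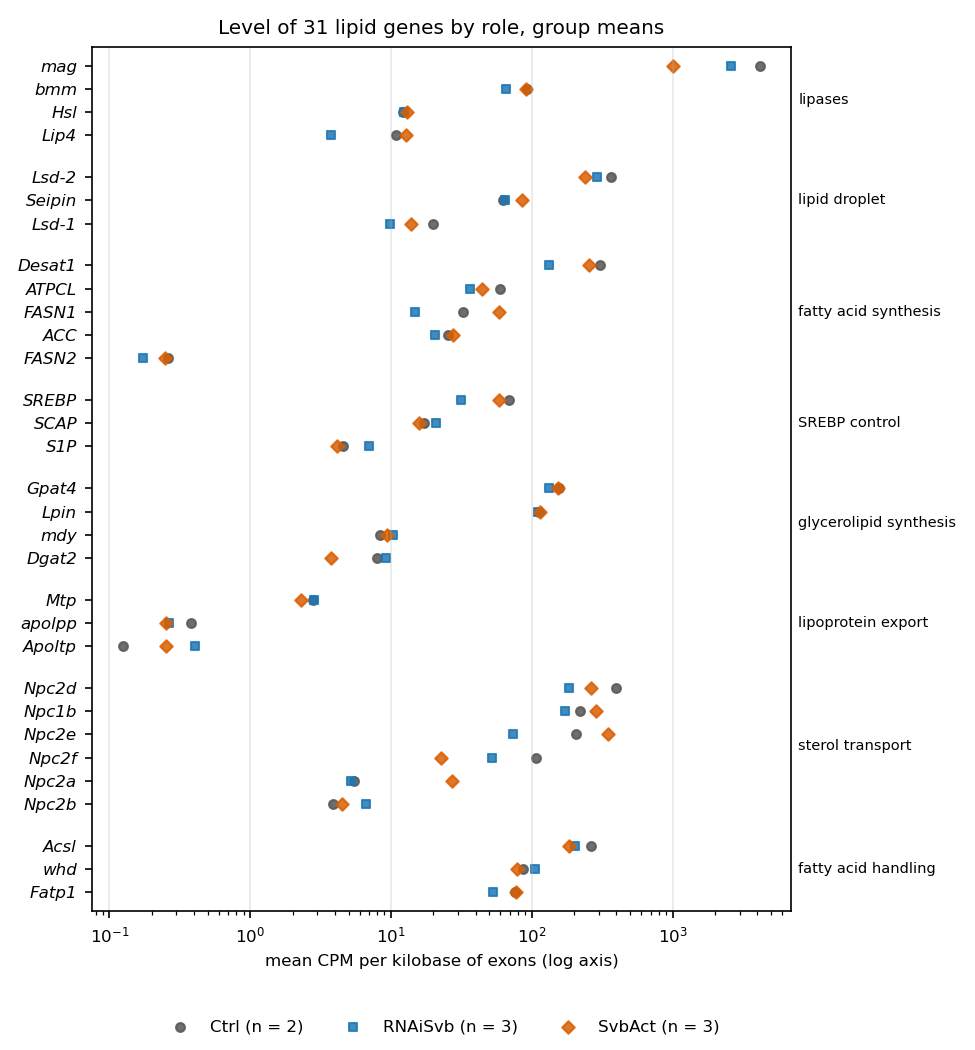
Mean CPM per kilobase of exon (log axis) of the 31 lipid genes, grouped by role, in Ctrl (grey circles, n = 2), the libraries labelled RNAiSvb (blue squares, n = 3) and SvbAct (orange diamonds, n = 3). The lipase gene mag leads in every group, at 4152, 2619 and 1011 CPM per kilobase, and the lipoprotein genes apolpp and Apoltp lie below 1.

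The first comparison, SvbAct against Ctrl, addresses which lipid genes differed between the group with the activator form and Ctrl. The lipase mag fell to 24.4% of its Ctrl mean, Npc2f fell to 21.2%, and Npc2a rose to 4.94 times its Ctrl mean. These were the 3 of 31 members past an adjusted p of 0.05, 1 higher and 2 lower. Among all 8775 genes tested, 3.44% passed, 1.95% higher and 1.49% lower. Enzymes of fatty acid and triglyceride synthesis did not pass. The median log2 fold change of the 31 was -0.07, against -0.01 over all genes, and the groups did not overlap for 8 members, 3 higher and 5 lower, a share of 25.8%. Over all genes that share was 38.6%, 18.7% higher and 20% lower.

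The gene mag (FBgn0036996, build dm6, chromosome 3L, 20460683 to 20462274, plus strand) had 6437 and 5827 CPM in Ctrl, 3307, 3853 and 4446 in the libraries labelled RNAiSvb, and 1668, 807 and 2005 in SvbAct. The 3 groups did not overlap, with every SvbAct library below every library labelled RNAiSvb and those below both Ctrl libraries. Against Ctrl the log2 fold change in SvbAct was -2.04 (SE 0.33, edgeR quasi-likelihood adjusted p 0.00853). In the libraries labelled RNAiSvb it was -0.66 (SE 0.32), which did not pass (adjusted p 0.407 by edgeR). SvbAct and the libraries labelled RNAiSvb differed by -1.37 (SE 0.30, adjusted p 0.0259 by edgeR). Without Ctrl replicate 1 or replicate 2 the fall in SvbAct against Ctrl did not pass, with an adjusted p by edgeR of up to 0.0838, while its size ran from -2.31 to -1.74 over all libraries left out in turn. The difference from the libraries labelled RNAiSvb was lost without SvbAct replicate 1, RNAiSvb replicate 2 or RNAiSvb replicate 3 (adjusted p by edgeR up to 0.0674).

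Among the sterol transport genes, Npc2a and Npc2f moved in opposite directions in SvbAct. Npc2a (FBgn0031381, chromosome 2L, 1988290 to 1988940, plus strand), whose product binds sterol in the endosomal and lysosomal pathway, had 3.37 and 3.81 CPM in Ctrl, 3.54, 3.76 and 2.85 in the libraries labelled RNAiSvb, and 15.1, 23.2 and 14.9 in SvbAct. All 3 SvbAct libraries stood far above the other 5, which overlapped among themselves. The log2 fold change was 2.30 against Ctrl (SE 0.32, adjusted p 0.00446 by edgeR) and 2.38 against the libraries labelled RNAiSvb (SE 0.27, adjusted p 0.00102 by edgeR). The call against Ctrl was lost without either Ctrl library (adjusted p by edgeR up to 0.0726), and the call against the libraries labelled RNAiSvb held in all 8 fits with 1 library left out. The progenitor markers rose in the same 3 libraries, and their part in the rise of Npc2a was not tested. In tissue preparations such as these, a change in the number of cells of a type and a change in RNA per cell cannot be told apart.

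Npc2f (FBgn0039154, chromosome 3R, 24137895 to 24140936, plus strand), another gene of the NPC2 family, had 95 and 57.6 CPM in Ctrl, 37.6, 53.9 and 20.5 in the libraries labelled RNAiSvb, and 9.10, 23.9 and 15.6 in SvbAct. The SvbAct values lay below both Ctrl values and overlapped with those labelled RNAiSvb. Its log2 fold change in SvbAct was -2.24 (SE 0.43, adjusted p 0.0209 by edgeR). Leaving out Ctrl replicate 1, Ctrl replicate 2 or SvbAct replicate 1 ended the call (adjusted p by edgeR up to 0.218). In the libraries labelled RNAiSvb the log2 fold change was -1.03 (SE 0.43, adjusted p 0.321 by edgeR). Npc1b, the midgut protein through which dietary sterol is taken up, had 891 and 845 CPM in Ctrl and 684, 1252 and 1470 in SvbAct, which overlapped.

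Dgat2 and FASN1 did not overlap with Ctrl either, and neither passed. Dgat2, a diacylglycerol acyltransferase that makes triglyceride, had 10.5 and 10.3 CPM in Ctrl and 4.58, 5.92 and 4.16 in SvbAct. The SvbAct values lay below both Ctrl values, with a log2 fold change of -1.10 (SE 0.36), which did not pass (adjusted p 0.149 by edgeR). In contrast to Dgat2, the other diacylglycerol acyltransferase, mdy, had 20.2 and 24.6 CPM in Ctrl and 22.6 to 27.3 in SvbAct, which overlapped. FASN1 had 235 and 330.1 CPM in Ctrl and 358, 482 and 689 in SvbAct, so that every SvbAct value was higher, with a log2 fold change of 0.85 (SE 0.28) and an adjusted p of 0.146 by edgeR, which did not pass. With the DESeq2 Wald test it passed (adjusted p 0.0417).

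The libraries labelled RNAiSvb were compared with Ctrl to ask which of these genes differed between the labelled groups. SREBP and Desat1, a regulator of lipid synthesis and a desaturase, fell to 45.8% and 43.9% of the Ctrl mean, and these 2 of 31 members passed the threshold, both lower. Over all 8775 genes tested 1.36% passed, 0.262% higher and 1.09% lower. The 5 genes of fatty acid synthesis all had negative estimates, with a median log2 fold change of -0.70, and 1 of them, Desat1, passed. Over the 31 the median was -0.35, against 0.02 over all genes, and 21 estimates were negative. The groups did not overlap for 17 members, 54.8%, of which 4 were higher and 13 lower, against 32.9% of all genes, 15.9% higher and 17% lower.

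SREBP (FBgn0261283, chromosome 3L, 19793935 to 19798979, plus strand) had 294 and 261 CPM in Ctrl, 132, 148 and 102 in the libraries labelled RNAiSvb, and 222, 262 and 233 in SvbAct. The libraries labelled RNAiSvb lay below all 5 others, while SvbAct and Ctrl overlapped. SREBP fell to 45.8% of Ctrl, a log2 fold change of -1.13 (SE 0.19, adjusted p 0.0151 by edgeR), and SvbAct was 0.91 above the libraries labelled RNAiSvb (SE 0.17, adjusted p 0.0126 by edgeR). In SvbAct against Ctrl the log2 fold change was -0.22 (SE 0.19, adjusted p 0.6 by edgeR). The fall was lost without Ctrl replicate 1, Ctrl replicate 2 or RNAiSvb replicate 1, with an adjusted p by edgeR of up to 0.155 and estimates from -1.25 to -0.99. The difference between SvbAct and the libraries labelled RNAiSvb held in all 8 such fits.

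Desat1 (FBgn0086687, chromosome 3R, 12439600 to 12447616, plus strand), which places a double bond in newly made fatty acids, had 705 and 808 CPM in Ctrl, 300.1, 370.2 and 327 in the libraries labelled RNAiSvb, and 483, 669 and 739 in SvbAct. Again the libraries labelled RNAiSvb were below all 5 others. Desat1 fell to 43.9% of Ctrl, by 1.19 on the log2 scale (SE 0.21, adjusted p 0.0203 by edgeR), and SvbAct was 0.92 higher than the libraries labelled RNAiSvb (SE 0.19, adjusted p 0.0194 by edgeR). Each of these calls was lost in 4 of 8 fits with 1 library left out. For the fall these were both Ctrl replicates and RNAiSvb replicates 1 and 3 (adjusted p by edgeR up to 0.214), and for the difference SvbAct replicates 2 and 3 and RNAiSvb replicates 1 and 3 (up to 0.0609).

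**Figure D2:**
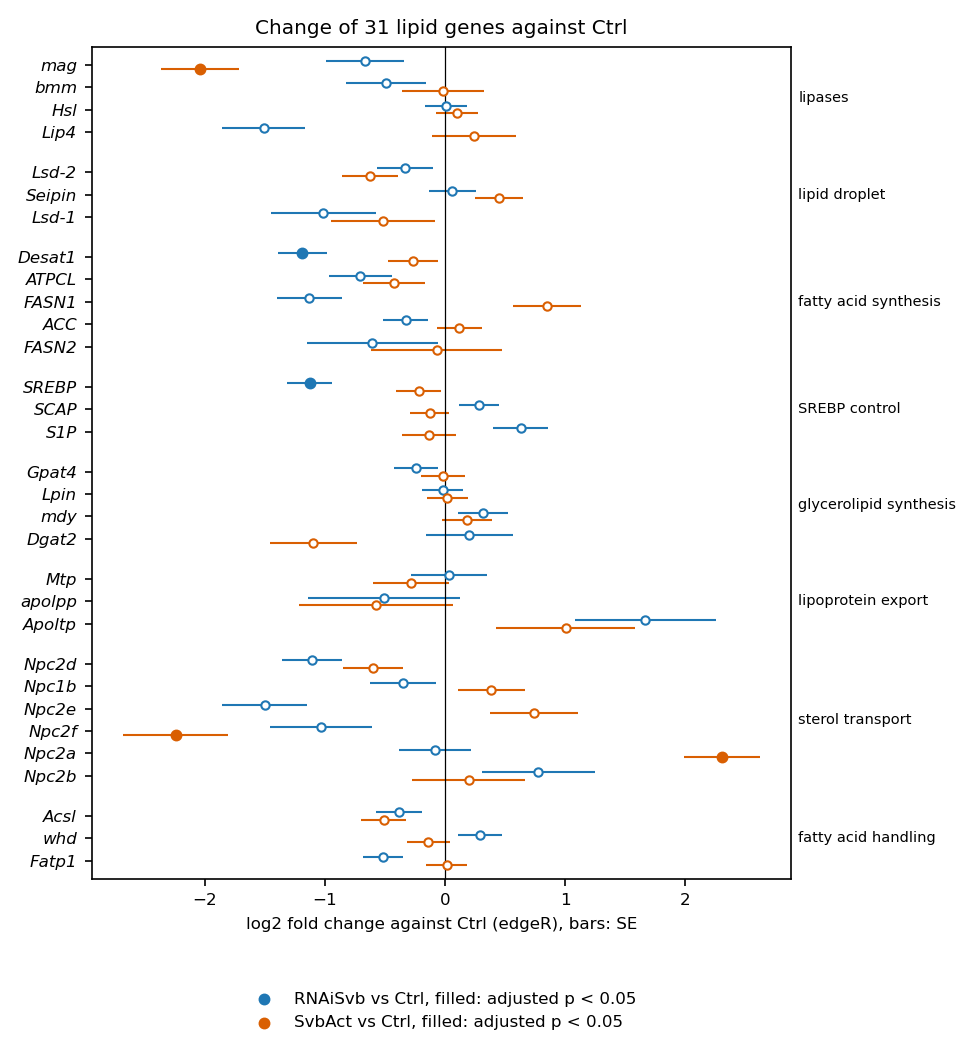
Log2 fold change with its SE of the 31 lipid genes against Ctrl, for the libraries labelled RNAiSvb (blue) and SvbAct (orange), grouped by role, filled where the edgeR adjusted p is under 0.05 and open otherwise. SREBP and Desat1 are filled in blue, at -1.13 and -1.19, and mag, Npc2f and Npc2a in orange, at -2.04, -2.24 and 2.30, both series sharing the same 2 Ctrl libraries.

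FASN1, the fatty acid synthase (FBgn0283427, chromosome 2L, 3056598 to 3068177, plus strand), had 146, 134 and 107 CPM in the libraries labelled RNAiSvb. These lay below both Ctrl libraries, and those below all 3 of SvbAct. The log2 fold change of the libraries labelled RNAiSvb was -1.13 (SE 0.27), which missed the threshold (adjusted p 0.0791 by edgeR) and passed with the DESeq2 Wald test (adjusted p 0.00513). SvbAct exceeded the libraries labelled RNAiSvb 3.94 times, by 1.98 on the log2 scale (SE 0.25, adjusted p 0.00182 by edgeR), and that difference held in all 8 fits with 1 library left out. ACC, which makes the malonyl-CoA used by the synthase, had 262 and 202 CPM in Ctrl, 162, 210.0 and 184 in the libraries labelled RNAiSvb and 228, 246 and 283 in SvbAct, so that the first 2 groups overlapped. ATPCL, which supplies acetyl-CoA from citrate, had 299.7 and 217 CPM in Ctrl and 143, 209.7 and 123 in the libraries labelled RNAiSvb, with a log2 fold change of -0.70 (SE 0.26, adjusted p 0.263 by edgeR). The members SCAP and S1P, whose products act in the cleavage of SREBP, had higher values in the libraries labelled RNAiSvb than in Ctrl. Neither passed. S2P, the site-2 protease gene and not a member, overlapped with Ctrl there (log2 fold change -0.13, SE 0.25, adjusted p 0.866 by edgeR). SCAP, the escort of SREBP, had 98.6 and 77 CPM in Ctrl and 101 to 116 in the libraries labelled RNAiSvb (adjusted p 0.492 by edgeR). S1P, the site-1 protease gene, had 13.6 and 14.9 CPM in Ctrl, 24.8, 20.6 and 20.8 in the libraries labelled RNAiSvb and 14.9, 10.7 and 13.3 in SvbAct, and its log2 fold change against Ctrl in the libraries labelled RNAiSvb was 0.63 (SE 0.23, adjusted p 0.249 by edgeR).

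The lipase Lip4 and the neighbouring genes Npc2d and Npc2e were also lower in all 3 libraries labelled RNAiSvb than in both Ctrl libraries, and none of them passed in edgeR's quasi-likelihood test. Lip4 (chromosome 2L, 10527572 to 10531778, plus strand), a lipase of the acid lipase family, had 24 and 27.2 CPM in Ctrl, 9.31, 12.2 and 5.37 in the libraries labelled RNAiSvb, and 42.1, 24.2 and 24.3 in SvbAct. Its log2 fold change in the libraries labelled RNAiSvb was -1.51 (SE 0.35, adjusted p 0.0673 by edgeR). SvbAct and Ctrl overlapped, and SvbAct was higher than the libraries labelled RNAiSvb by 1.75 (SE 0.32, adjusted p 0.0118 by edgeR), in all 8 fits with 1 library left out.

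Npc2d and Npc2e lie 1007 bases apart on opposite strands of chromosome 3R. Npc2d (10055356 to 10056083, minus strand) had 229 and 296 CPM in Ctrl, 95.1, 132 and 138 in the libraries labelled RNAiSvb and 139, 150.4 and 231 in SvbAct. The log2 fold change in the libraries labelled RNAiSvb was -1.11 (SE 0.25, adjusted p 0.0627 by edgeR). Npc2e (10053332 to 10054348, plus strand) had 184 and 90.4 CPM in Ctrl, 60.4, 42.6 and 43.1 in the libraries labelled RNAiSvb and 134, 291 and 264 in SvbAct, which left Ctrl and SvbAct overlapping. Npc2e was 4.72 times as high in SvbAct as in the libraries labelled RNAiSvb, by 2.24 on the log2 scale (SE 0.33, adjusted p 0.00424 by edgeR), whereas Npc2d differed between them by 0.51 (SE 0.23, adjusted p 0.204 by edgeR). Exons of Npc2e share 611 bases with asRNA:CR44192 on the other strand, and strand handling was not stated, so its counts are uncertain. The antisense gene differed by 0.03 between SvbAct and the libraries labelled RNAiSvb (SE 0.18, adjusted p 0.938 by edgeR), with 60.4 to 90.1 CPM over those 6 libraries. Reads shared between members of the NPC2 family were not checked, since no sequences were used here.

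Apoltp had 2.51 and 0.846 CPM in Ctrl, 5.18, 7.56 and 3.38 in the libraries labelled RNAiSvb and 2.70, 2.51 and 4.96 in SvbAct. The libraries labelled RNAiSvb lay above both Ctrl libraries, with 14 to 177 counts over all 8 libraries and a log2 fold change of 1.67 (SE 0.59, adjusted p 0.239 by edgeR). The lipoprotein gene apolpp overlapped between all groups, from 1.15 to 5.50 CPM, as did Mtp, from 5.71 to 10.5.

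**Figure D3:**
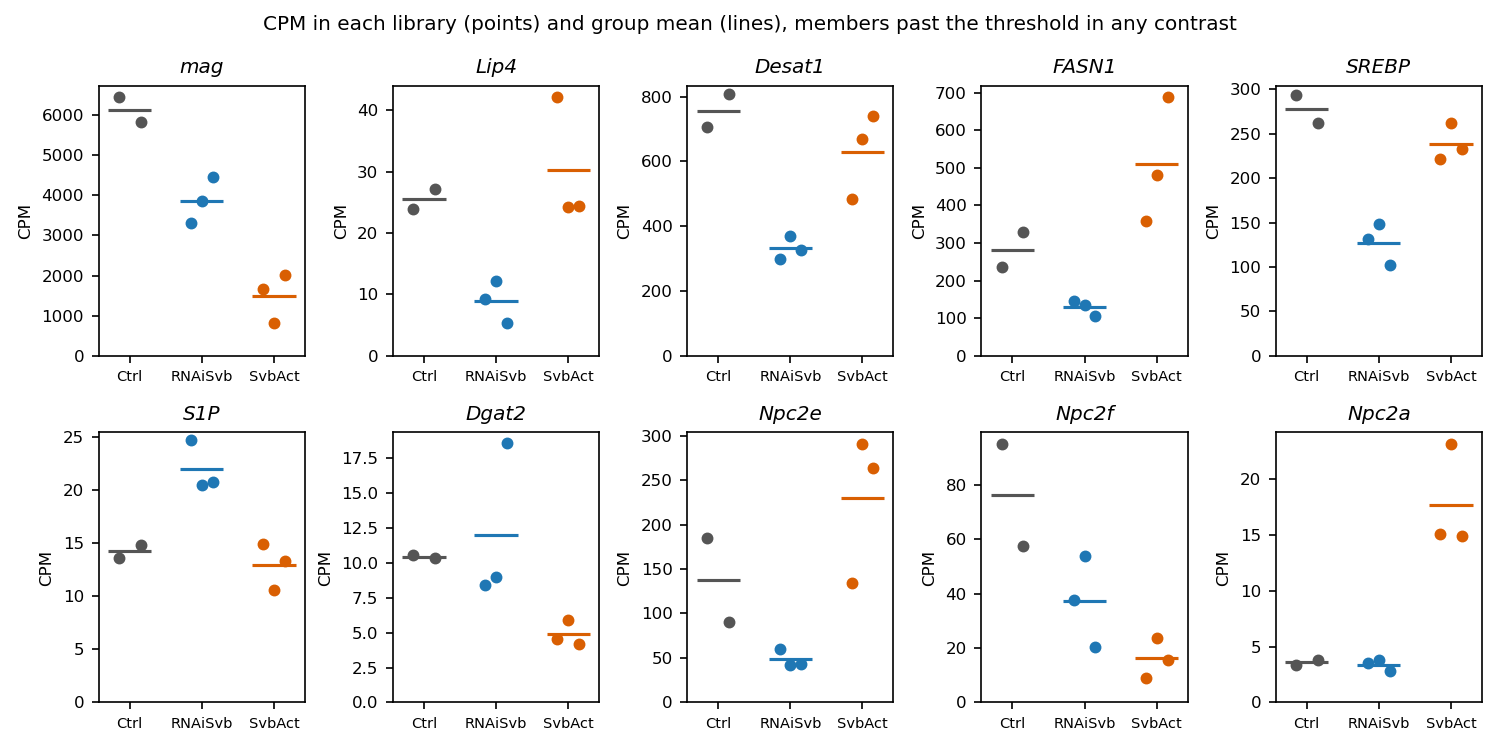
CPM on linear axes in each library (points) with the group mean (line) for the 10 lipid genes past the threshold in at least 1 contrast, with Ctrl in grey, the libraries labelled RNAiSvb in blue and SvbAct in orange. FASN1, Desat1, SREBP, Lip4 and Npc2e are lowest in the libraries labelled RNAiSvb, mag is lowest in SvbAct at 807 to 2005 CPM, and Npc2a is highest in SvbAct at 14.9 to 23.2 CPM.

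SvbAct was then compared directly with the libraries labelled RNAiSvb, a comparison that does not use the 2 Ctrl libraries as a group. Of the 31 members 9 passed, 6 higher and 3 lower in SvbAct, a share of 29%, against 6.26% of all 8775 genes, 4.05% higher and 2.21% lower. The higher genes were Npc2a, Npc2e, FASN1, Lip4, Desat1 and SREBP, and the lower ones mag, Dgat2 and S1P. For 17 members, 12 higher and 5 lower, the groups did not overlap, a share of 54.8% against 29.8% of all genes, 14.9% in either direction. For SREBP and Desat1 the SvbAct values were close to or below those of Ctrl, so that the difference lay mainly in the libraries labelled RNAiSvb, whereas for Npc2a it lay in SvbAct. All 5 genes of fatty acid synthesis had positive estimates, and 2 of them, FASN1 and Desat1, passed.

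The calls of Dgat2 and S1P were close to the threshold. Dgat2 (chromosome 2R, 7712578 to 7714182, plus strand) had 8.40, 9.02 and 18.6 CPM in the libraries labelled RNAiSvb, and its log2 fold change in SvbAct was -1.30 (SE 0.33, adjusted p 0.0467 by edgeR). The value of 18.6 CPM came from RNAiSvb replicate 3, and without that library the estimate was -0.83. The call held in 1 of 8 fits with 1 library left out, the fit without RNAiSvb replicate 1, and the highest edgeR adjusted p was 0.133. S1P (chromosome 3L, 21613797 to 21617376, minus strand) differed by -0.76 (SE 0.20, adjusted p 0.0499 by edgeR), and its call held in none of the 8 (adjusted p by edgeR up to 0.128).

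**Figure D4:**
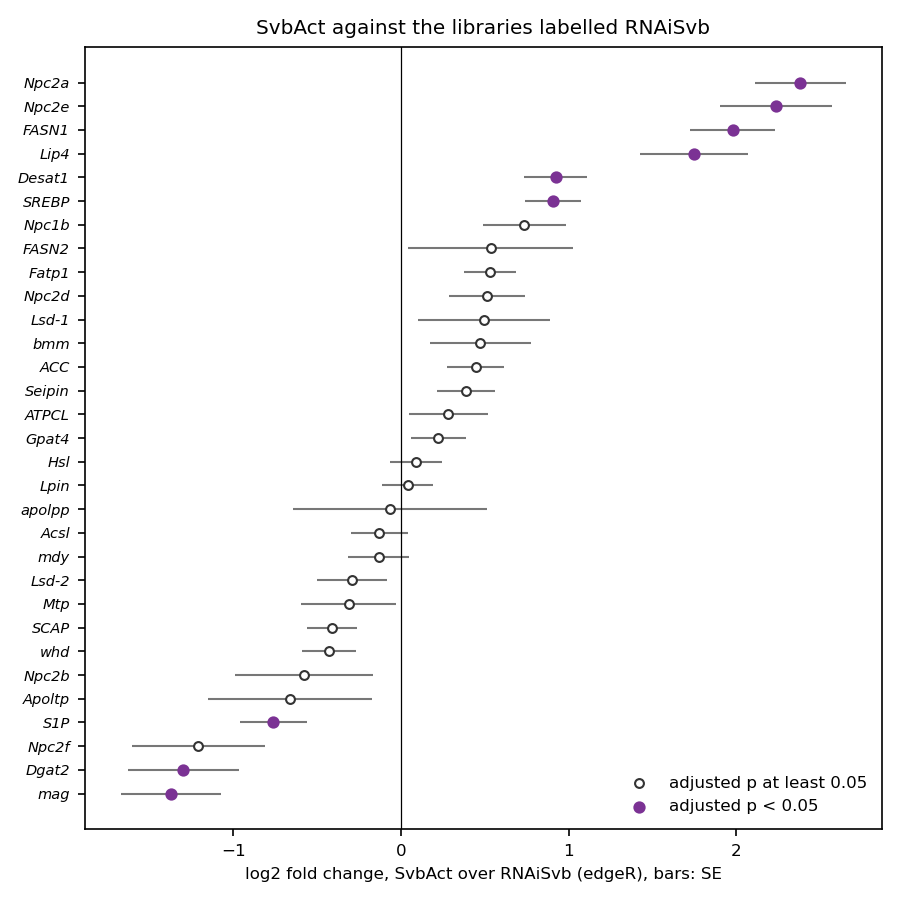
Log2 fold change of SvbAct over the libraries labelled RNAiSvb with its SE for the 31 lipid genes, ordered by size, filled where the edgeR adjusted p is under 0.05. Values run from -1.37 for mag to 2.38 for Npc2a, with 6 filled points to the right of 0 and 3 to the left.

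The remaining members did not pass in any of the 3 contrasts. Storage and breakdown genes were among them. The triglyceride lipase bmm (brummer), which works on lipid droplets, had 150.2 and 298 CPM in Ctrl and 122 to 292 in the other 6 libraries, and Hsl, the hormone-sensitive lipase gene, had 39.6 to 54.8 CPM over all 8 libraries. The perilipin Lsd-2 had 1394 and 1985 CPM in Ctrl and 1247, 867 and 1175 in SvbAct, below both Ctrl values, with a log2 fold change of -0.62 (SE 0.23, adjusted p 0.197 by edgeR). The other perilipin, Lsd-1, had 15.5 and 62.0 CPM in Ctrl, while the other 6 libraries lay between 16.4 and 32.3. Seipin, which shapes droplets as they form, had 104 and 151 CPM in Ctrl and 160.0, 164 and 197 in SvbAct, with a log2 fold change of 0.45 (SE 0.20, adjusted p 0.272 by edgeR). Lpin, the lipin phosphatase gene, varied little, with means of 622 ± 47.9 CPM (SD, n = 2) in Ctrl, 631 ± 85.4 (SD, n = 3) in SvbAct and 614 ± 10.6 (SD, n = 3) in those labelled RNAiSvb, and log2 fold changes against Ctrl of 0.02 (SE 0.17) in SvbAct and -0.02 (SE 0.17) in the libraries labelled RNAiSvb. Gpat4 had -0.02 (SE 0.18) and -0.24 (SE 0.18), in the same order.

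The 3 genes of fatty acid activation and use differed by less than 0.6 on the log2 scale in every contrast. Acsl had 1228 and 1351 CPM in Ctrl, 1075, 1094 and 804 in the libraries labelled RNAiSvb and 894, 848 and 975 in SvbAct, so that all 6 were below both Ctrl libraries, with log2 fold changes of -0.38 (SE 0.19) and -0.51 (SE 0.19) that did not pass (adjusted p by edgeR 0.420 and 0.199). Fatp1, a fatty acid transport protein gene that lies 10353 bases from Lip4 on the other strand, had 253 and 267 CPM in Ctrl, 169, 198 and 179 in the libraries labelled RNAiSvb and 222, 279.7 and 286 in SvbAct. It was higher in SvbAct than in the libraries labelled RNAiSvb by 0.53 (SE 0.15, adjusted p 0.0671 by edgeR). The carnitine palmitoyltransferase gene whd (withered), which admits fatty acids to mitochondria for oxidation, had 276 and 273 CPM in Ctrl and 285, 354 and 368 in the libraries labelled RNAiSvb, above both Ctrl values (log2 fold change 0.29, SE 0.18, adjusted p 0.529 by edgeR). Npc2b, at 2.19 to 8.12 CPM, and FASN2, at 1.09 to 2.84 CPM, had few counts and wide errors.

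In the authors' deposited table, which gives its own log2 fold changes and calls, 3 of the 31 were called in SvbAct against Ctrl, mag at -2.04, Npc2f at -2.24 and Npc2a at 2.30. In RNAiSvb against Ctrl the authors' deposited table called 6, all lower, namely Lip4, FASN1, Desat1, SREBP, Npc2d and Npc2e. The DESeq2 Wald test on the deposited counts also called 6 there, where it called 4% of all genes. The share of all genes that the authors called was not computed here, so their 3 and 6 calls have no such share beside them.

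The rest of the lipid pathway was described with a separate list of 145 genes, of which 97 were in the table and 95 were tested. Against Ctrl, 6 of the 95 passed in SvbAct, 1 higher and 5 lower, beside 3.44% of all genes. In the libraries labelled RNAiSvb 0 passed in edgeR's quasi-likelihood test, 21 (22.1%) had an unadjusted p under 0.05, against 13.6% of all genes, and the DESeq2 Wald test called 4 (4.21%), against 4% of all genes. Between SvbAct and the libraries labelled RNAiSvb 12 passed, 5 higher and 7 lower, beside 6.26% of all genes. The median log2 fold changes of the 95 were -0.04 in the libraries labelled RNAiSvb, -0.04 in SvbAct and -0.03 between SvbAct and those libraries.

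The lowest adjusted p of the list belonged to CG2772 (chromosome 2L, 3445992 to 3447589, plus strand), listed among the lipase family. It had 217 and 179.7 CPM in Ctrl, 91.6, 129.7 and 159.6 in the libraries labelled RNAiSvb and 17.8, 16.1 and 17.4 in SvbAct. All 3 SvbAct libraries were far below the other 5. Against Ctrl, CG2772 fell by 3.53 on the log2 scale (SE 0.23, adjusted p 5.56e-05 by edgeR) and by 2.89 against the libraries labelled RNAiSvb (SE 0.21, adjusted p 0.000215 by edgeR), and both calls held in all 8 fits with 1 library left out. Another lipase family gene, CG17191, had no counts in Ctrl and 47, 55 and 82 counts in SvbAct. The libraries labelled RNAiSvb also held counts of CG17191, in a range that overlapped with Ctrl, and did not pass (adjusted p 0.329 by edgeR). Against 3 counts per Ctrl library, CG17191 was at least 21.7-fold higher in SvbAct than in Ctrl (adjusted p 0.0219 by edgeR). That call was lost without either Ctrl library or SvbAct replicate 2.

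The glycerol kinase gene Gk2 fell in SvbAct against Ctrl, from 217 and 219 CPM to 91.2, 98.1 and 123, by 1.07 on the log2 scale (SE 0.19, adjusted p 0.0125 by edgeR). The groups did not overlap, and the call was lost without either Ctrl library (adjusted p by edgeR up to 0.113). In the libraries labelled RNAiSvb, Gk2 also lay below both Ctrl values. Its log2 fold change there was -0.59 (SE 0.19), which did not pass (adjusted p 0.203 by edgeR). The other 3 genes of that list called in SvbAct against Ctrl were lower too, LpR1 among them. Elovl7, of the fatty acid elongase family, changed by -0.82 (SE 0.18, adjusted p 0.0367 by edgeR). In the libraries labelled RNAiSvb, Elovl7 also lay below both Ctrl values, at -0.78 (SE 0.18), which did not pass (adjusted p 0.0739 by edgeR). In SvbAct against Ctrl, CG3902, listed under beta-oxidation, changed by -0.75 (SE 0.16, adjusted p 0.0356 by edgeR). The calls of these genes in SvbAct against Ctrl were lost in most fits with 1 library left out, 7 of 8 for Elovl7 and 5 of 8 for CG3902.

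Between SvbAct and the libraries labelled RNAiSvb, Acbp6, an acyl-CoA binding protein gene, was 2.71 higher in SvbAct (SE 0.46, adjusted p 0.0085 by edgeR), with 10.3, 27.8 and 9.87 CPM against 2.73, 2.14 and 2.42. LpR1, a lipophorin receptor gene, was lower by 0.97 (SE 0.20, adjusted p 0.0195 by edgeR), with 60.2, 62.5 and 47.2 CPM against 94.6, 122 and 117. Ctrl had 136 and 86.8 CPM of LpR1, and SvbAct was also lower than Ctrl, by 0.97 (SE 0.22, adjusted p 0.0371 by edgeR), a call that was lost without Ctrl replicate 1, RNAiSvb replicate 3 or any 1 of the SvbAct replicates (adjusted p by edgeR up to 0.428). For CG3902 and wal, both listed under beta-oxidation, the differences were -0.73 (SE 0.15) and -0.79 (SE 0.16), with adjusted p of 0.0194 and 0.0195 by edgeR. The calls of LpR1, CG3902 and wal between SvbAct and the libraries labelled RNAiSvb were each lost in 3 of 8 fits with 1 library left out (adjusted p by edgeR up to 0.0674). In that contrast all 11 genes listed under beta-oxidation had negative estimates, with a median of -0.24 and 2 past the threshold. Over all genes 51.5% of the estimates were negative, the median was -0.02 and 6.26% passed. In SvbAct against Ctrl 10 of the 11 were negative (9 in 5 of the 17 other settings, library totals and the replicate block among them), with a median of -0.30 and 1 past the threshold, while over all genes 51.1% were negative, the median was -0.01 and 3.44% passed.

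**Figure D5:**
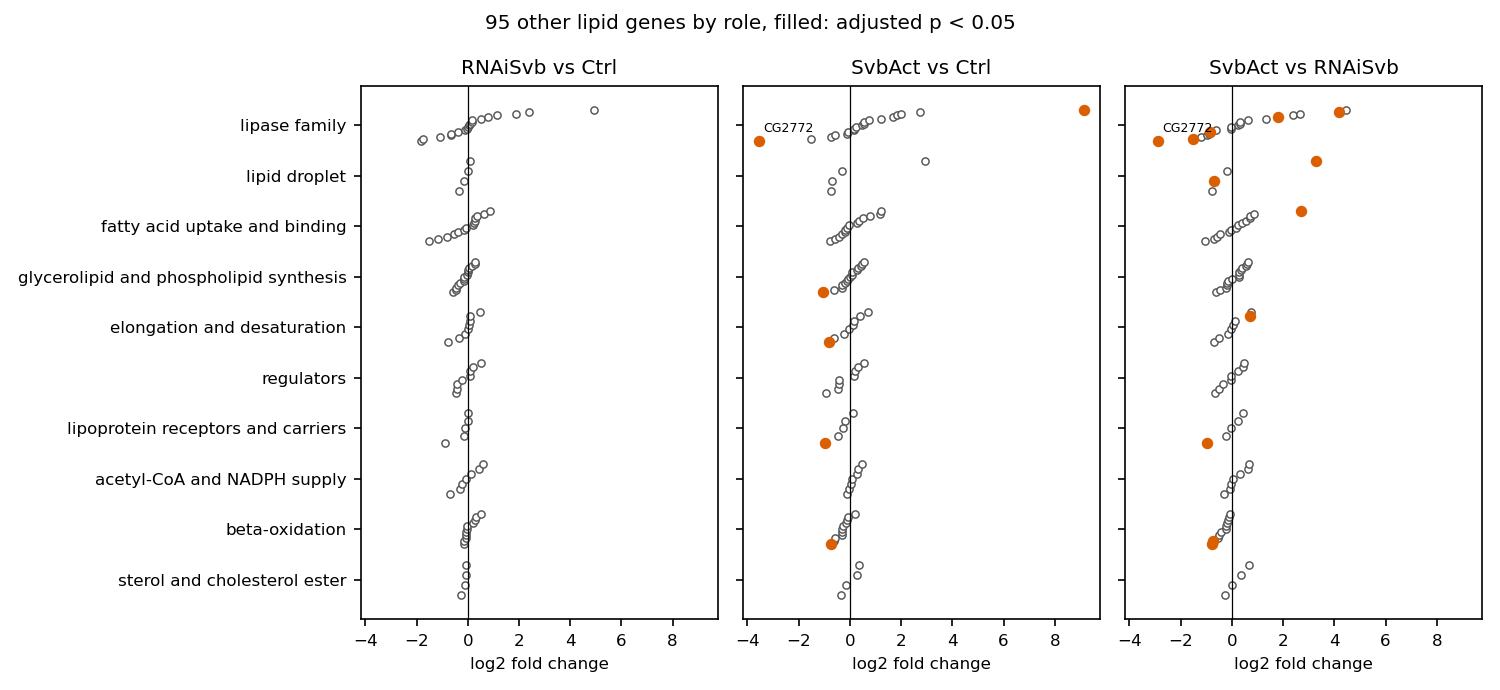
Log2 fold changes of the 95 other lipid genes by role in the 3 contrasts, filled where the edgeR adjusted p is under 0.05. The filled points number 0, 6 and 12 from left to right, CG2772 is the lowest in SvbAct at -3.53 and -2.89, and the point farthest to the right in SvbAct vs Ctrl is CG17191, which had no counts in Ctrl, so that its fitted position is no measure of its size.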

How the data were processed

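Whole-number counts per FlyBase gene for 8 libraries were used as the authors deposited them. Per the submitters' processing notes, FastQC 0.11.5, STAR 2.5.2b, HTSeq 0.6.0 and edgeR were used with build dm6; annotation, strand setting and gene filter are not given in the sources used here. The authors' deposited log2 fold changes, p-values and calls were only compared.

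In R 4.3.3 with edgeR 4.0.16, filterByExpr kept 8775 genes, TMM factors were computed, and 1 quasi-likelihood fit with a mean per group over all 8 libraries (5 residual degrees of freedom) gave 3 contrasts, adjusted by Benjamini-Hochberg over all genes at 0.05. The procedure was tested on simulated data. SE is the absolute log2 fold change over the square root of F. CPM use TMM factors. Symbols, positions (1-based) and exon lengths come from Ensembl 115 of BDGP6.54, which has dm6 coordinates. DESeq2 1.42.0 and other settings were alternatives.

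Genes named in full were members past the threshold in any contrast, members not overlapping with Ctrl and changed by at least 1 on the log2 scale, the most abundant member of each role, and up to 5 other pathway genes per contrast. Other members are given by library or by range so that each is accounted for, and which of them have a test printed was chosen after their values were seen. Members and lists were chosen with earlier results of these data known. Series text gives replicates as biological, made on different days, so p-values measure the spread between pooled batches of flies. Flies of UAS-Svb3Kmut::GFP, also named under growth, were not analysed here.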

Additional observations from a re-analysis of the deposited data

How the results depend on the processing

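Counts of members past the threshold were 2 for RNAiSvb against Ctrl, 3 for SvbAct against Ctrl and 9 for SvbAct against RNAiSvb. In RNAiSvb against Ctrl they became 6 with the DESeq2 Wald test, 6 with edgeR's likelihood ratio test, 5 with only the compared groups fitted and 0 at an adjusted p under 0.01. In SvbAct against RNAiSvb the DESeq2 Wald test gave 12 (adding Npc1b, Fatp1 and Npc2f), the likelihood ratio test 10 and the stricter threshold 3, and in SvbAct against Ctrl the Wald test gave 4 (adding FASN1). The Wald test called 4%, 7.3% and 12% of all genes and the likelihood ratio test 3.75%, 6.95% and 10.9%, against 1.36%, 3.44% and 6.26%. Fitting only the compared groups called 1.7% of all genes in RNAiSvb against Ctrl. The stricter threshold called 0.501% there and 1.82% in SvbAct against RNAiSvb. With each library left out in turn the counts ran from 0 to 4, from 0 to 3 and from 5 to 7. With both Ctrl libraries kept, such fits called 0.753% to 1.61%, 2.15% to 4.21% and 2.99% to 5.67% of all genes. Of the other 95 pathway genes 0, 6 and 12 passed. The DESeq2 Wald test gave 4, 12 and 23. The likelihood ratio test gave 3 (3.16%), 14 (14.7%) and 23 (24.2%), against 3.75%, 6.95% and 10.9% of all genes. The stricter threshold gave 1 (1.05%) in SvbAct against Ctrl and 2 (2.11%) in SvbAct against RNAiSvb. In RNAiSvb against Ctrl 1 passed with at least 10 counts in every library (1.12%), against 1.18% of all genes. Leave-one-out ranges were 0 to 1, 1 to 10 and 4 to 15. The cause of these shifts was not tested. Scaling by library totals moved the median of all genes in RNAiSvb against Ctrl from 0.02 to 0.13 on the log2 scale. It called 2, 3 and 8 members, beside 1.19%, 3.64% and 5.94% of all genes. Of the 93 member estimates, 22 changed sign in at least 1 of 17 settings, and 0 of these were called by the edgeR test as reported. They include Lsd-1, at -1.01 in RNAiSvb against Ctrl and 0.31 without Ctrl replicate 2, and Lpin in all 3 contrasts. Same-numbered libraries of different groups had deviations correlated from -0.13 to 0.16, above 0.1 in 1 of 7 pairs. Deviations from the mean of a group of 2 or 3 libraries are bound to each other, so these values cannot decide on pairing. The numbers were not taken as pairs because the labels do not tie a number to a day. With the replicate block 3, 3 and 7 members and 1 pathway gene in RNAiSvb against Ctrl passed. That block called 1.41%, 3.07% and 5.05% of all genes. With 2 Ctrl libraries, 1 Ctrl library left out leaves the other assumed to vary like the other groups.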
